A study of Mus musculus with 6 samples.

Results

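The transcripts described here are 10 mouse chemokine genes, Cxcl15, Cxcl1, Cxcl2, Cxcl5, Cxcl10, Cxcl12, Cxcl16, Ccl2, Ccl20 and Cx3cl1, out of 19938 genes measured on the same arrays. They were taken as members of the chemokine family, and Cxcl15 was named among them because its level was lower with valproic acid. The contrast between valproic acid and control was therefore already used in choosing them. Their differences in that contrast are given as a description, with standard errors and 95% intervals but without a p-value. Each of the 10 genes had exactly 1 probe set with a single gene symbol.

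Chemokines are small secreted proteins that guide the movement of leukocytes along concentration gradients. They are grouped by the spacing of their first cysteines into CC, CXC, CX3C and XC types, and they act through G protein-coupled receptors. Epithelial, stromal and tumour cells make them in response to cytokines and microbial products, largely through the transcription factor NF-kappaB, and CXC chemokines with an ELR motif attract neutrophils. Valproic acid (VPA), an anticonvulsant drug, also blocks class I histone deacetylases.

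The study compared murine prostate cancer cells treated with VPA, 3 samples, with control cells, 3 samples, with 1 Affymetrix mouse Gene 1.0 ST array per sample. The titles "Pca_control" and "Pca_vpa" and the design text give these groups. Other fields of the same samples contradict them: the control samples are also described as differentiated embryonic stem cells of strain 129SV and the VPA samples as undifferentiated embryonic stem cells of strain Stra8-EGFP/Rosa26. Every difference below is between the arrays titled VPA and those titled control, and it carries this doubt. Dose, duration, cell line name and whether the biological replicates were separate cultures are not stated in these sources, so the tests measure the spread between these samples. The array medians lay between 7.15 and 7.18 on the log2 scale, and the number of arrays limits the precision.

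RMA values carry no detection call, so the genes of odour and vomeronasal receptors, 1192 on this array, served as a rough reference for a signal without expression. Their 95th percentile lay between 6.30 and 6.58 in the 6 arrays. Markers of the labelled cell type and of other cell types gave a mixed picture. Among 13 prostate and epithelial markers, 8 lay above the reference in all 6 arrays and 2 in none. The same counts were 4 and 6 of 12 pluripotent, 7 and 3 of 11 fibroblast and endothelial, and 4 and 7 of 13 leukocyte markers. The luminal keratin gene Krt8 had a mean log2 value of 7.75 ± 0.31 (SD, n = 3) in control arrays and Hoxb13, a prostate lineage factor, 7.88, whereas Epcam, an epithelial adhesion molecule, lay below the reference in all 6 arrays. Krt19 had a mean of 8.02 and Krt18 of 6.71 in control arrays. The fibroblast proteoglycan gene Dcn, at a mean of 14.10, and Sox2, at 11.58, lay above the reference in all arrays, and the pluripotency genes Pou5f1 and Zfp42 lay below the reference in all arrays. None of 13 prostate and epithelial, 12 pluripotent, 11 fibroblast and endothelial or 13 leukocyte markers passed the test between the groups, with 2, 4, 3 and 1 at an unadjusted p under 0.05, against 18.1% of all genes. Of the 12 pluripotent markers, 11 differences were below 0, against 58.6% of all genes, and 4 had all VPA values below all control values, against 12% of all genes. The mean of these 12 lay between 6.88 and 7.01 in the control arrays and between 6.67 and 6.83 in the VPA arrays, with a median difference of -0.17. The arrays also described as undifferentiated stem cells had the lower mean, but 6 of the 12 markers lay above the reference in no array. Much of that mean is therefore signal near or below the reference, and no label is judged by it. The part of these markers in the results was not tested. The leukocyte genes Ptprc and Lyz2 lay below the reference in every array, and Cd68 was at 8.24 ± 0.43 in control and 8.45 ± 0.46 in VPA arrays (SD, n = 3).

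Cxcl15, also called lungkine, encodes an ELR-type CXC chemokine that attracts neutrophils. Its log2 values were 11.39, 11.15 and 11.11 in control replicates 1, 2 and 3. They were 10.12, 10.13 and 10.24 in VPA replicates 1, 2 and 3. All 3 VPA arrays lay below all 3 control arrays, with a gap of 0.872 between the groups and a spread of 0.281 within the controls and 0.117 within the VPA arrays. The mean difference was -1.05 (SE 0.0985, 95% interval -1.28 to -0.83), a level 2.08-fold lower with VPA. Ordered from the most negative difference, Cxcl15 was number 3 of the 19938 genes. Leaving out any single array kept the difference between -1.11 and -0.97.

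The other neutrophil chemokines of the group lie close to Cxcl15 on chromosome 5. Cxcl5, the product of which acts through the receptor Cxcr2, had values of 9.80, 9.70 and 9.06 in the control replicates and 8.51, 9.17 and 8.44 in the VPA replicates. Control replicate 3 and VPA replicate 2 overlapped, and the difference of -0.81 (SE 0.226, 95% interval -1.32 to -0.31) had a wide interval. It was -1.04 without control replicate 3 and -0.68 without control replicate 1. Cxcl1, the mouse counterpart of the GRO chemokines, had values of 7.95, 7.82 and 7.81 in the controls and 7.80, 7.74 and 7.67 with VPA. The groups were separated by only 0.00831, and the difference was -0.12 (95% interval -0.31 to 0.07). Cxcl2, a closely related neutrophil attractant, had values of 5.999, 5.596 and 5.710 in the controls and 5.887, 5.442 and 5.655 with VPA. Its values lay below the odour receptor reference in all 6 arrays, so a difference in Cxcl2, measured as -0.11 (95% interval -0.42 to 0.20), may not be detectable with this probe set. Whether probes cross-react between Cxcl1, Cxcl2 and Cxcl3, whose sequences are alike, was not tested.

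The levels of different probe sets cannot be set against each other, and differences between these genes in their change were not tested.

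**Figure D1:**
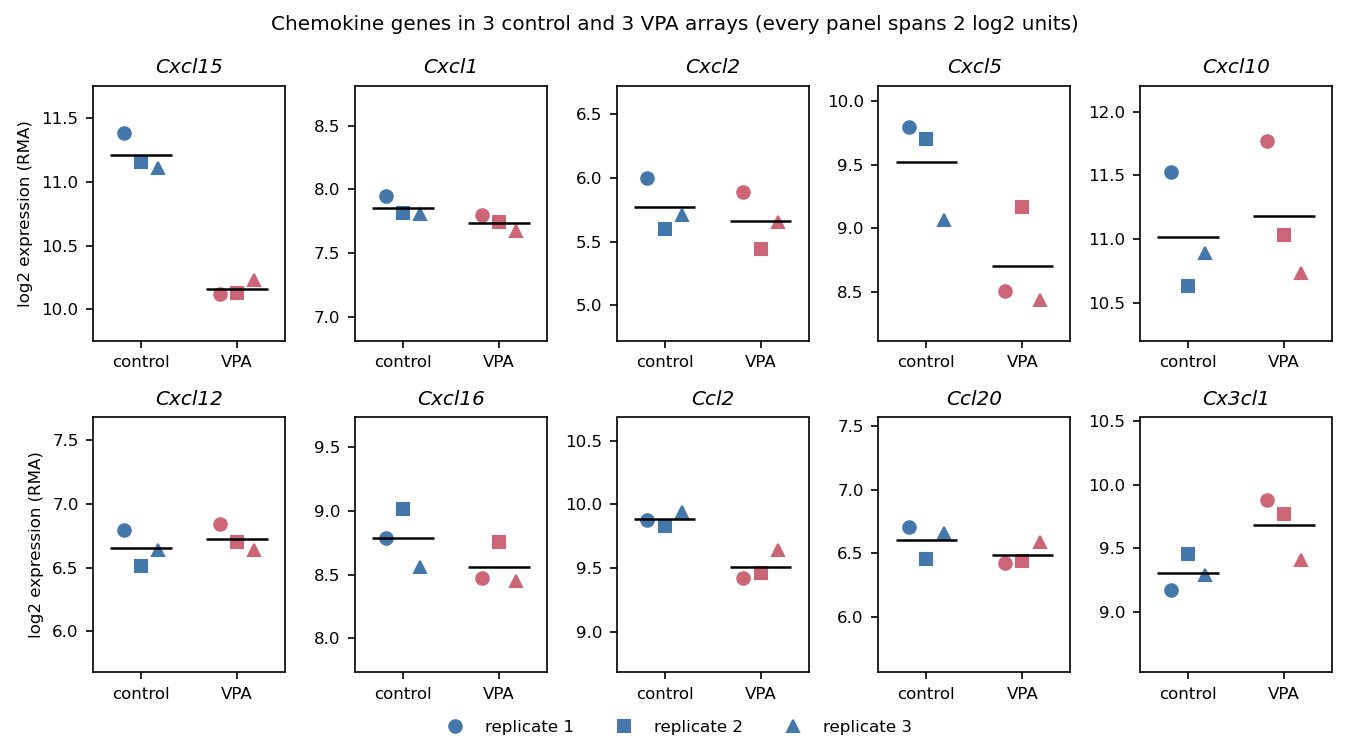
Log2 expression (RMA, vertical axis) of the 10 chemokine genes in 3 control and 3 VPA arrays. Each point is an array, its shape gives the replicate number, the black line is the group mean, and every panel spans the same range of log2 units. The Cxcl15 groups are separated by 0.872, while the Cxcl10 values spread over 1.04 within the VPA arrays.

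Cxcl10, a ligand of Cxcr3 induced by interferon, was the most variable of the 10 genes. Its values were 11.53, 10.63 and 10.89 in the controls and 11.77, 11.04 and 10.74 with VPA, and the highest value of each group was that of replicate 1. The groups overlapped widely, with a difference of 0.16 (SE 0.275, 95% interval -0.45 to 0.78). The sign turned without control replicate 2, at -0.03, and without VPA replicate 1, at -0.13. That interval includes 0 and changes of either sign. This fit, with 3 arrays per group and replicate numbers not paired, thus does not settle whether Cxcl10 changed.

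Ccl2, the monocyte attractant MCP-1, varied little within each group. Its values were 9.88, 9.83 and 9.94 in the controls and 9.42, 9.46 and 9.64 with VPA. The groups did not overlap, and the difference was -0.37 (SE 0.091, 95% interval -0.58 to -0.17), which is 1.30-fold lower with VPA. Ccl20, the ligand of Ccr6, ranged from 6.46 to 6.70 in the controls and from 6.43 to 6.59 with VPA, close to the odour receptor reference, with a difference of -0.12 (95% interval -0.34 to 0.10).

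Cx3cl1 and Cxcl16 encode the membrane-anchored chemokines, which also act as adhesion molecules and are released by the proteases ADAM10 and ADAM17. Cx3cl1, fractalkine, had values of 9.17, 9.45 and 9.29 in the controls and 9.88, 9.77 and 9.41 with VPA. VPA replicate 3 overlapped the controls, and the difference was 0.38 (SE 0.132, 95% interval 0.09 to 0.68), the highest of the 10 genes. The difference was 0.60 without control replicate 2 and VPA replicate 3, a choice made after seeing the data. These are the arrays whose single omission raised the count of called genes. For Cx3cl1 they also held the highest control and the lowest VPA value, so leaving them out had to widen the difference. Cxcl16, the ligand of Cxcr6, had values of 8.79, 9.01 and 8.56 in the controls and 8.47, 8.76 and 8.45 with VPA, which overlapped, and a difference of -0.23 (95% interval -0.52 to 0.07). Cxcl12, the ligand of Cxcr4 and Ackr3 made by stromal cells, ranged from 6.51 to 6.80 in the controls and from 6.64 to 6.85 with VPA. These values lay only a little above the odour receptor reference, and the difference was 0.08 (95% interval -0.15 to 0.31).

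**Figure D2:**
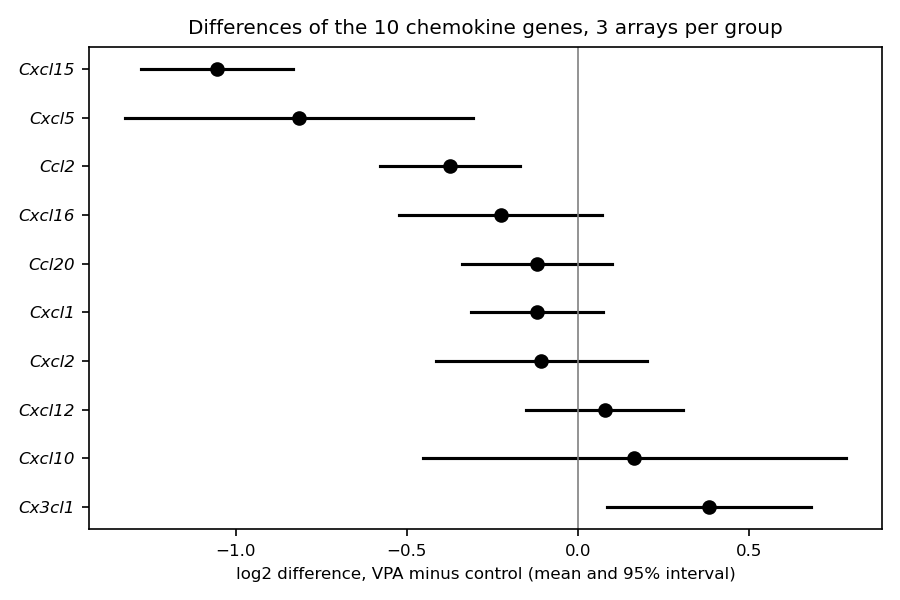
Difference between VPA and control means on the log2 scale (horizontal axis) for each of the 10 chemokine genes, with 3 arrays per group. Points are means and bars are 95% intervals from limma. The intervals of Cxcl15, Cxcl5 and Ccl2 lie below 0, that of Cx3cl1 lies above 0, and those of the other 6 genes include 0.

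In the fit over all genes, 1 of the 10 chemokine genes, Cxcl15, was called at an adjusted p under 0.05, against 2.34% of all genes (0.632% lower and 1.71% higher with VPA). Of the 10, 3 (Cxcl15, Cxcl1 and Ccl2) had all VPA values below all control values, against 12% of all genes, and none had all VPA values above, against 11.1%. The median difference of the 10 was -0.12, beside -0.035 over all genes, and 7 of 10 differences were below 0, against 58.6% of all genes. Since the contrast was used to choose the genes, nothing is read from these counts. Of the 10, 8 lay above the odour receptor reference in all 6 arrays, Ccl20 in 5 arrays and Cxcl2 in none. In bulk RNA, fewer producing cells and less RNA per cell cannot be told apart.

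Promoter sequences are shown because Cxcl15, Cxcl1 and Cxcl2 lie in one gene cluster and their upstream sequences can be set side by side. RefSeq (GRCm38.p6) gave a promoter for 7 of the 10 genes, and the 250 bases before the start of 4 of them are shown, 5′ to 3′ on the strand of the gene. They are Cxcl15 (chr5:90794284-90794533, + strand), Cxcl1 (chr5:90890995-90891244, + strand) and Cxcl2 (chr5:90903649-90903898, + strand) from that cluster, and Cxcl10 (chr5:92348890-92349139, - strand) as the interferon-responsive comparator. Capitals mark every match, on either strand, to the NF-kappaB consensus, an AP-1 motif (TGANTCA), the interferon-stimulated response element or a TATA box (TATAAA).
Cxcl15: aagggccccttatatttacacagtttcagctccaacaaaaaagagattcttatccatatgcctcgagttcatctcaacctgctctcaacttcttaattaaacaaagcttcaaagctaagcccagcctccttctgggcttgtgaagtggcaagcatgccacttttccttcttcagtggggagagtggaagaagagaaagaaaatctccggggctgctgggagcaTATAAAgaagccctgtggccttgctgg
Cxcl1: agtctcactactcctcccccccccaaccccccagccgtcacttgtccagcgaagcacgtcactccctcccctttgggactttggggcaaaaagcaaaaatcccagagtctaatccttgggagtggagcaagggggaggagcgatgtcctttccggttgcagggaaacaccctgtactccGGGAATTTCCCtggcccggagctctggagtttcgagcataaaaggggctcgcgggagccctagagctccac
Cxcl2: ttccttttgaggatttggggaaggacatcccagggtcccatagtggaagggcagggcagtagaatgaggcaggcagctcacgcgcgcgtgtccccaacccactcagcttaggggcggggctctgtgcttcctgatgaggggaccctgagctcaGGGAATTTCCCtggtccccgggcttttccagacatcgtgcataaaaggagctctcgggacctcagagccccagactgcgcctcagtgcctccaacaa
Cxcl10: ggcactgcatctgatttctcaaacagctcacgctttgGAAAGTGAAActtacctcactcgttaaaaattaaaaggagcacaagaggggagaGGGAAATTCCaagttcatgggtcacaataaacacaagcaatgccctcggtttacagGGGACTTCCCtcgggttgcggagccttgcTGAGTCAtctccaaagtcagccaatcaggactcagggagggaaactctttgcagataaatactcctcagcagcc

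In the Cxcl15 promoter the only match to these motifs was a TATA box from 27 to 22 bases before the start. Cxcl1 held an NF-kappaB match, GGGAATTTCC, at 71 to 62 bases before the start, overlapping a match shifted by 1 base. Cxcl2 held the identical pair of overlapping matches at 97 to 88 and 96 to 87 bases before the start. Cxcl10 held an interferon response match at 213 to 204, NF-kappaB matches at 159 to 150 and 103 to 94 and an AP-1 match at 74 to 68 bases before the start. The NF-kappaB consensus was found in 4 of the 7 promoters (Cxcl1, Cxcl2, Cxcl10 and Ccl20) and in 3.9% of the 32851 promoters of the table. The AP-1, interferon response and TATA motifs were found in 6.75%, 5.09% and 12.4% of them. Cx3cl1 held a TATA match in the last 6 bases before its start, and Cxcl12 held none of the 4 motifs. A match is a string of letters and not a measured binding site, and the absence of one says only that these letters are not in this window.

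The neighbourhood of Cxcl15 was then examined for a change that reached beyond the single gene. Within 500 kb of Cxcl15, RefSeq listed 22 other genes outside the 10, of which 13 were tested. None passed in either direction, and 1 had an unadjusted p under 0.05, against 18.1% of all genes. That gene was Ppbp, a platelet chemokine, with values of 5.04, 4.94 and 4.86 in the controls and 4.64, 4.71 and 4.80 with VPA (difference -0.23, SE 0.089, limma adjusted p = 0.211). All 6 values lay below the odour receptor reference. Cxcl3, the adjacent gene on one side of Cxcl15, differed by -0.07 (SE 0.123, adjusted p = 0.808), and Pf4 by -0.04 (SE 0.0918, adjusted p = 0.854). Beyond Cxcl2, the gene Mthfd2l, a mitochondrial folate enzyme, differed by 0.05 (SE 0.0886, adjusted p = 0.796). The EGF family ligands Epgn and Ereg differed by 0.12 and 0.30 (adjusted p 0.724 and 0.446). The median difference of the 13 genes was -0.03. However, 8 of the 13 lay above the odour receptor reference in no array and only 4 in all arrays. A change in those 8 may not be detectable, so whether a change reached beyond Cxcl15 cannot be read from them.

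**Figure D3:**
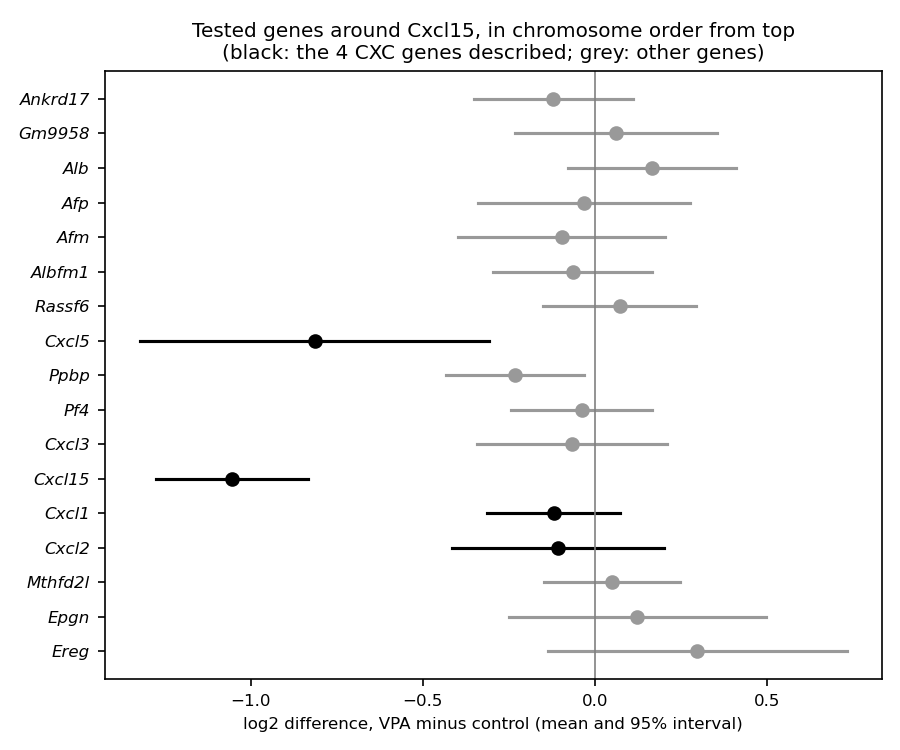
Difference between VPA and control means on the log2 scale (horizontal axis, with 95% intervals) for the tested genes within 500 kb of Cxcl15, ordered along the chromosome. Black points are the 4 CXC genes described in the text and grey points the other 13, of which 8 lay above the odour receptor reference in no array. Cxcl15 and Cxcl5 lie at -1.05 and -0.81, while Cxcl3, between them and next to Cxcl15, lies at -0.07.

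Among 26 tested ligand genes outside the 10, none passed in either direction and 5 had an unadjusted p under 0.05, against 18.1% of all genes. The median difference was -0.08, and 21 of 26 differences were below 0, against 58.6% of all genes. Ccl24, an eosinophil attractant, differed by -0.27 (SE 0.1, adjusted p = 0.189) and Cxcl13, a B cell attractant, by -0.30 (SE 0.116, adjusted p = 0.206). Ccl7, which like Ccl2 attracts monocytes, was looked at after its value was seen. It had values of 8.99, 9.35 and 9.11 in the controls and 8.48, 9.05 and 8.91 with VPA, with a difference of -0.34 (SE 0.152, adjusted p = 0.278). Of the 26, 8 lay above the odour receptor reference in all arrays and 13 in none.

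Of 22 tested chemokine receptor genes, 21 did not pass, 1 rose with VPA and none fell. Over all genes, 1.71% were called higher. An unadjusted p under 0.05 was found for 3 of the 22, against 18.1% of all genes. The gene that rose was Ackr1, an atypical receptor that binds many CC and CXC chemokines without signalling and is known from red blood cells and venular endothelium. Its values were 6.91, 6.73 and 6.84 in the controls and 7.45, 7.31 and 7.26 with VPA. The groups did not overlap, and the level was 1.43-fold higher (log2 difference 0.52, SE 0.0913, n = 3 per group, limma adjusted p = 0.0255). Single arrays decided this call: leaving out control replicate 1 or 3 gave an adjusted p of 0.076 or 0.081, respectively, and it was 0.107 and 0.0908 when VPA replicate 1 and 2, respectively, were left out. Over the 22 receptors the median difference was -0.11.

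Cx3cr1, the receptor of Cx3cl1, lay above the odour receptor reference in all arrays, at 7.12 to 7.19 in the controls and 6.93 to 7.24 with VPA (difference -0.08, adjusted p = 0.708). Cxcr2, through which Cxcl1, Cxcl2 and Cxcl5 act, ranged from 4.35 to 4.59 in the controls and from 4.22 to 4.52 with VPA (difference -0.12, adjusted p = 0.584). Cxcr4 differed by 0.02 (adjusted p = 0.943), a value whose sign turned with centred arrays, with array weights and without control replicate 2, VPA replicate 1 or VPA replicate 3, and Ackr3 by -0.29 (adjusted p = 0.219). Of the 22 receptors, 16 lay above the reference in no array and 5 in all arrays.

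Of 21 tested genes of the NF-kappaB pathway, 19 did not pass, 2 fell with VPA and none rose. Over all genes, 0.632% were called lower. An unadjusted p under 0.05 was found for 8 of the 21, against 18.1% of all genes. All VPA values lay below all control values for 8 of the 21, against 12% of all genes, and above for 2, against 11.1%. What sets these shares was not tested. Ikbkg encodes NEMO, the regulatory subunit of the kinase that releases NF-kappaB from its inhibitor. Its values were 9.72, 9.49 and 9.58 in the controls and 8.74, 8.79 and 8.82 with VPA. The groups did not overlap, and Ikbkg fell 1.76-fold (log2 difference -0.82, SE 0.0899, n = 3 per group, adjusted p = 0.00853). It stayed past the threshold without any single array, with adjusted p from 0.00709 to 0.045. Myd88, the adaptor of Toll-like and interleukin-1 receptors, had values of 10.09, 9.88 and 10.16 in the controls and 9.52, 9.43 and 9.69 with VPA. It fell 1.41-fold (log2 difference -0.50, SE 0.107, adjusted p = 0.0474). The Myd88 call also rested on single arrays, since leaving out control replicate 1 or 3 gave an adjusted p of 0.171 or 0.153, respectively, and it was 0.161 and 0.176 when VPA replicate 1 and 2, respectively, were left out. The inhibitor gene Nfkbia, itself induced by NF-kappaB, differed by -0.21 (SE 0.0944, adjusted p = 0.285) and the subunit gene Rela by -0.18 (SE 0.0858, adjusted p = 0.301). Nfkb1 has no value here. The median difference of the 21 genes was -0.08.

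The genes whose values over the 6 arrays ran most nearly parallel to Cxcl15 were ranked by Pearson's r, as a description only. Predicted or unnamed genes, small RNAs and olfactory or vomeronasal receptors were left out, so the ranks hold only among the genes kept. Among these, Ikbkg came first, at r = 0.995, followed by Acot4, a peroxisomal thioesterase gene, at 0.995. Next were Svep1, an extracellular matrix gene, at 0.992, Pramel20 at 0.992 and Mfsd3 at 0.991. Over 6 arrays that fall into 2 groups such values are common, and 186 genes had an r above 0.95. The differences of these 5 genes were -0.82, -0.35, -0.35, -0.46 and -0.14. Among the other chemokines, Ccl2 had the highest r with Cxcl15, at 0.932, followed by Cxcl5 at 0.804, and Cx3cl1 had the lowest, at -0.821.

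Of 27 tested cytokines and receptors known to induce chemokine genes, 26 did not pass, 1 fell with VPA and none rose. Over all genes, 0.632% were called lower. An unadjusted p under 0.05 was found for 6 of the 27, against 18.1% of all genes. The gene that fell was Lif, an interleukin-6 family cytokine, with values of 8.75, 8.72 and 8.31 in the controls and 7.54, 7.73 and 7.45 with VPA. Lif fell 2.03-fold (log2 difference -1.02, SE 0.132, adjusted p = 0.00993), and its adjusted p was 0.0515 without control replicate 1. The genes Il18 and Il1rn were named after their values were seen. Il18, which encodes a cytokine of the interleukin-1 family, had means of 5.67 ± 0.46 (SD, n = 3) in the controls and 6.43 ± 0.20 (SD, n = 3) with VPA (difference 0.76, SE 0.204, adjusted p = 0.0914). Its 3 control values lay below the odour receptor reference and its VPA values near it, so the size of this difference is uncertain. Il1rn, the interleukin-1 receptor antagonist, differed by 0.57 (SE 0.142, adjusted p = 0.0757). The groups of both genes did not overlap, which was the case for 11.1% of all genes in that direction. The median difference of the 27 genes was -0.00403.

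Among 20 tested transcription factors other than NF-kappaB subunits that are known to act at chemokine promoters, 19 did not pass, 1 fell and none rose. Over all genes, 0.632% were called lower. An unadjusted p under 0.05 was found for 7 of the 20, against 18.1% of all genes. All VPA values lay below all control values for 5 of the 20, against 12% of all genes, and above for 4, against 11.1%. What sets these shares was not tested. Cebpa, a factor of the C/EBP family, had values of 8.48, 8.59 and 8.46 in the controls and 8.20, 8.04 and 8.01 with VPA. It fell 1.35-fold (log2 difference -0.43, SE 0.0899, adjusted p = 0.044), and the call ended when any single array was left out, with adjusted p from 0.0733 to 0.161. Its relative Cebpb differed by -0.06 (SE 0.116, adjusted p = 0.8). The median difference of the 20 genes was 0.01.

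No gene passed among 15 regulators of transcript stability, 16 sheddases and other proteases or 19 genes of heparan sulphate, the surface polysaccharide that holds chemokines, with 1, 2 and 4 at an unadjusted p under 0.05, against 18.1% of all genes. The kinase gene Mapk14 and the RNA-binding protein gene Zfp36l2 differed by 0.21 and -0.22 (adjusted p 0.265 and 0.384). Adam10 and Adam17, the sheddases of Cx3cl1 and Cxcl16, were named for that role and differed by 0.11 and 0.08 (adjusted p 0.572 and 0.625). The collagenase gene Mmp13 had values of 7.06, 7.55 and 7.48 in the controls and 6.78, 6.90 and 6.88 with VPA, with a difference of -0.51 (SE 0.129, adjusted p = 0.0789). Mmp14 differed by -0.45 (SE 0.145, adjusted p = 0.145), but passed without VPA replicate 3, at an adjusted p of 0.0212. Of the heparan sulphate genes, Extl3, a glycosyltransferase, differed by -0.39 (SE 0.0962, adjusted p = 0.0719) and passed without VPA replicate 3, at 0.0465. The core protein gene Gpc1 differed by 0.30 (SE 0.0833, adjusted p = 0.102).

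**Figure D4:**
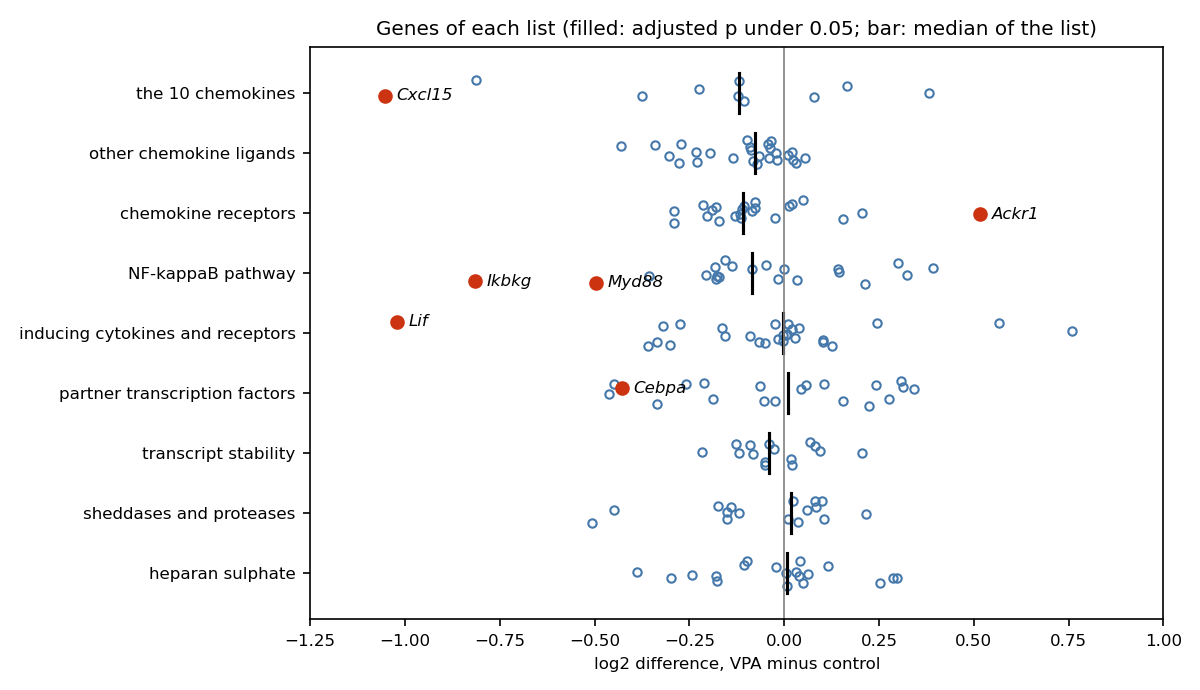
Difference between VPA and control means on the log2 scale (horizontal axis) for every tested gene of the 10 chemokines and of 8 related gene lists. Each circle is a gene, spread vertically for legibility only, filled circles are genes with an adjusted p under 0.05 and the bar is the median of the list. Besides Cxcl15, the filled genes are Ackr1 at 0.52, Ikbkg at -0.82, Myd88 at -0.50, Lif at -1.02 and Cebpa at -0.43. Cxcl15 was named because it was lower in this same contrast, so its filled circle is a description and not a test.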

How the data were processed

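Total RNA was hybridised to Affymetrix mouse Gene 1.0 ST arrays (labels' protocols). Per the submitters' processing notes, the authors deposited log2 values computed by RMA with Affymetrix Expression Console, whose version is not given in the sources used here. Because RMA equalises array distributions, a common shift of most transcripts would be lost. Of 35556 probe sets, 21789 had 1 gene symbol, 1621 had several and 12146 were unlisted. Symbols were matched by Entrez identifier to RefSeq GRCm38.p6 (21698 matched). The probe set with the highest mean was kept per gene, giving 19938 genes.

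Groups came from the sample titles. VPA was compared with control with limma 3.58.1 (lmFit, eBayes; R 4.3.3), two-sided, with the group as the only term and Benjamini-Hochberg adjustment over all genes. A gene was called at an adjusted p under 0.05. The test was tested on simulated data.

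The members and gene lists were chosen with earlier results of these data known. The rule for named genes took the 10 chemokines, the tested neighbours of Cxcl15 and chosen markers. From each list it took up to 4 called genes per direction, or else the 2 with the smallest p. It also took the 5 genes most correlated with Cxcl15, with the exclusions given above. Cxcr2, Cxcr4, Ackr3, Nfkbia, Rela, Nfkb1, Lif and Cebpb were taken in any case. Exceptions are stated. List entries without a single-symbol probe set are not analysed here.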

Additional observations from a re-analysis of the deposited data

How the results depend on the processing

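The alternatives were array weights, a low-value filter, averaged probe sets, quantile normalization again, centring on array medians, a trended robust prior, a replicate block, an adjusted p under 0.01 and each array left out in turn. Leaving out control replicate 2 together with VPA replicate 3 was chosen after seeing the data. The Cxcl15 difference moved by less than the spread between replicates in all 14 settings that give one. The low-value filter, the trended robust prior, the replicate block and averaged probe sets leave each chemokine's difference unchanged by construction. In the settings that could change it, the Cxcl15 difference ran from -1.12 to -0.97. Of 125 values for the other 9 chemokines, those same settings included, 4 changed sign (Cxcl2 and Cxcl10, with single arrays left out). Another 3 moved by more than that spread: without control replicate 2 and VPA replicate 3, Ccl2 was at -0.47, Ccl20 at -0.25 and Cx3cl1 at 0.60. In these 3 genes, those arrays held the control and VPA values nearest the other group, so the difference had to widen. Cxcl2, Ccl20, Cxcl12 and most receptors lie near or below the odour receptor reference, which limits what can be seen in them.

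The 467 genes called became 714 with array weights, 43 at an adjusted p under 0.01, 1349 without control replicate 2 and VPA replicate 3, and 20 to 815 with single arrays left out. Array weights gave 3 called cytokines and receptors instead of 1. At an adjusted p under 0.01, the count was 0 for chemokine receptors, 1 for the NF-kappaB pathway and 0 for transcription factors. Without control replicate 2 and VPA replicate 3 it was 4 for the NF-kappaB pathway, 3 for cytokines and receptors, 2 for transcription factors and 1 for proteases. With single arrays left out, the counts ran from 0 to 1 for chemokine receptors, from 1 to 2 for the NF-kappaB pathway, from 0 to 2 for cytokines and receptors, from 0 to 1 for transcription factors, from 0 to 1 for proteases and from 0 to 1 for heparan sulphate genes. The cause was not tested.

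The groups share replicate numbers. The deviations of same-numbered arrays from their group means correlated at 0.084, 0.451 and 0.284 for replicates 1, 2 and 3. For replicates 2 and 3 no other combination correlated better, while control replicate 1 correlated best with VPA replicate 3, at 0.2. Among the 10 chemokines, 5, 9 and 9 deviations had the same sign in both groups for replicates 1, 2 and 3. The main fit did not take the numbers as pairs, and whether they mark pairs was not tested. With the replicate block, 1199 genes were called. Calls among the 10 chemokines are not given for this setting. Outside the 10, the called genes included 1 chemokine ligand (Ccl9), 3 cytokines and receptors and 4 transcription factors. They also included 1 protease (Mmp13, adjusted p = 0.0202) and 1 heparan sulphate gene (Extl3, adjusted p = 0.036). The difference of each of the 10 chemokines is the same with the block by construction, but their standard errors were all lower. The standard error went from 0.275 to 0.113 for Cxcl10 and from 0.226 to 0.138 for Cxcl5, but only from 0.0985 to 0.0977 for Cxcl15. The intervals given above would thus be narrower for some of these genes if the numbers mark pairs.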
